A study of Homo sapiens with 6 samples.

Results

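Ribosomal protein pseudogenes are copies of the genes for the proteins of the cytoplasmic ribosome, and their transcripts were examined in sequenced RNA that was immunoprecipitated natively with ORC1 (RIP-seq). They were taken from the deposited table by symbol, as the name of a ribosomal protein gene followed by P and a number. The rule matched 257 symbols, of which RPS19BP1, a protein-coding gene for a binding partner of RPS19, was left out because it is no pseudogene. The remaining 256 pseudogenes, of 23013 genes in the table, derived by name from 63 parent genes. Of these pseudogenes, 167 were copies of large-subunit (RPL) genes and 89 of small-subunit (RPS) genes. Of the 256, 254 could be set beside a parent among the rows used here, which gave 62 parents.

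The study asked which RNAs come down with ORC1, a subunit of the complex that binds replication origins. Nuclear lysate of untreated, asynchronous HCT116 cells, a human colorectal carcinoma line, gave 3 inputs sequenced without antibody and 3 libraries pulled down by an antibody to ORC1 (ORC1 IP). GEO labels give each input and each ORC1 IP the number of a RIP replicate, 1, 2 or 3. The methods describe the 3 as repeat experiments, while the labels do not name separate cultures, and p-values measure the spread between these libraries. No library from a control antibody was analysed here, and an ORC1 IP was therefore compared with input alone.

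Most ribosomal protein pseudogenes are processed pseudogenes. They arise when a spliced mRNA is reverse transcribed and inserted elsewhere in the genome, so that they carry the exons of the parent without its introns and without its promoter. Ribosomal protein genes, which are expressed strongly in every cell, are among the richest sources of such copies. Because a young copy differs from its parent at few bases, short reads of the parent mRNA can align to it, and a row of a pseudogene may hold reads of the parent. The treatment of reads with more than 1 matching gene is not stated in the methods.

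In GENCODE v44 (GRCh38), 231 of the 256 pseudogenes were typed as processed, 21 as transcribed processed and 2, RPL32P3 and RPL23AP82, as transcribed unprocessed pseudogenes. The identifiers of RPS7P1 and RPSAP58 had no match, so these have no coordinates or sequence here. Across the 104 pseudogenes that passed the filter described below and had a sequence, identity to the parent transcript ranged from 68.2% to 100% with a median of 94.4%. A median of 14.1% of their 50-base stretches occurred also in the transcript of another gene.

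The following sequences show how close called pseudogenes and parents are. Each run is the first 120 bases of the parent's coding sequence, 5′ to 3′, with its start codon in capitals, and the stretch of the pseudogene aligned to it, with bases that differ from the parent in capitals. RPL5P17 and RPS24P17 are the pseudogenes called higher in the ORC1 IP, and RPS2P5, RPS19P3 and RPLP0P6 had the largest negative changes among those called. Transcript sequences are those of GENCODE v44 on GRCh38.

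RPL5: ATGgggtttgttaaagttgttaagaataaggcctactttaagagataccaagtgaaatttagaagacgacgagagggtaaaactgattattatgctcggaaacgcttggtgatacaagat
RPL5P17: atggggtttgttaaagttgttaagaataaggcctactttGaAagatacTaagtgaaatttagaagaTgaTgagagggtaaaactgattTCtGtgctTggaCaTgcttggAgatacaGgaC
RPS24: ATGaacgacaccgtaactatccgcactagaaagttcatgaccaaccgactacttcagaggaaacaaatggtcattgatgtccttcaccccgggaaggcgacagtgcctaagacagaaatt
RPS24P17: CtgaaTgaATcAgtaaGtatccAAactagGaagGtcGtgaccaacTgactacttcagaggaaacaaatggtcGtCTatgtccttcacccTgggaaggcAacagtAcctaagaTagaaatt
RPS2: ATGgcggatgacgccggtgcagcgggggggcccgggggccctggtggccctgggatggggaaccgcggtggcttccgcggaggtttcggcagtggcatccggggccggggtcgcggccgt
RPS2P5: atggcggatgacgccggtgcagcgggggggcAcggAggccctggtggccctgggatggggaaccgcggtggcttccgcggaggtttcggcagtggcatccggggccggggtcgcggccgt
RPS19: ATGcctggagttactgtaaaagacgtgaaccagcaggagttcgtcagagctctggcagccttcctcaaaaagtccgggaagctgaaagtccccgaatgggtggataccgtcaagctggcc
RPS19P3: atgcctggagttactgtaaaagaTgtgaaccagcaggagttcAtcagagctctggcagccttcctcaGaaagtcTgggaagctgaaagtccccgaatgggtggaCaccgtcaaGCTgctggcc
RPLP0: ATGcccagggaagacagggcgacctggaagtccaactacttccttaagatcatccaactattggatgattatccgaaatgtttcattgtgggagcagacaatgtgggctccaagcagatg
RPLP0P6: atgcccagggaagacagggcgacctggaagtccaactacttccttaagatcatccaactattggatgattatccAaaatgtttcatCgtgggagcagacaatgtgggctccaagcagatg

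Over these windows, RPL5P17 differed from RPL5 at 14 bases and RPS24P17 from RPS24 at 19. RPS2P5 and RPLP0P6 differed from their parents at 2 bases each. RPS19P3 had 5 substitutions and 3 added bases relative to RPS19. Over these windows, the pseudogenes shown thus ranged from copies with 19 substitutions relative to the parent to copies with 2.

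Ribosomal protein pseudogenes made up a small part of each library. Recovered reads on genes numbered 13703033 to 17248924 in inputs and 25134156 to 36008733 in ORC1 IPs. The 256 pseudogenes held 0.217%, 0.236% and 0.286% of the reads in inputs 1, 2 and 3, against 0.209%, 0.250% and 0.106% in ORC1 IPs 1, 2 and 3. Their summed reads amounted to 10.5% to 12.7% of those of the 62 parents in every library. Of 8 markers listed for the cell line, 6 were in the table, and CDX1 and LGR5 were not. KRT8 and KRT18, keratins of simple epithelia, had 42650 and 16999 normalised counts on average in inputs. EPCAM had 2639, CDH1 1085 and CDX2 341, whereas VIL1, a villus marker, had 3.58. Of 5 markers listed for leukocytes, 3 for endothelium and 5 for fibroblasts, 1 each was in the table. These were CD14, VWF and COL1A1, with input means of 0.352, 19.1 and 231.9.

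A mean of at least 10 normalised counts over the 6 libraries was required for a test, and 106 pseudogenes (41.4%) passed, 73 RPL and 33 RPS. RPS4XP17 and RPL38P4, with means of 10.2 and 10.1, lay just inside this limit, and RPL13AP25 and RPS15P5, with 9.93 and 9.56, just outside. The 150 pseudogenes below it had means of 1.60 to 9.93, with a median of 3.14, and 77 of them had no read in at least 1 library. Together these 150 rows held 1605 reads in the inputs and 1771 in the ORC1 IPs, so no difference of a single one of them was sought. Fold changes below are differences of mean log2(normalised count + 1), which understates changes of low genes.

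Few of the tested pseudogenes differed between ORC1 IP and input beyond the spread of the replicates, and most of those that did were lower in the ORC1 IP. In limma, with adjustment over all 16513 genes tested, 2 of the 106 were called higher (adjusted p under 0.05), against 2.28% of all genes, and 10 were called lower, against 1.42% of all genes. The median log2 fold change of the 106 was -0.48, with 36 above 0, whereas the median of all genes was 0.01. A negative value means a lower level relative to the other genes of the library, and not an absolute amount of RNA. At an unadjusted p under 0.05, 11 of the 106 were higher and 32 lower, beside 2014 and 1561 of the 16513 genes. In 13 pseudogenes every ORC1 IP lay above every input, and in 36 every ORC1 IP lay below, against 12.7% and 13.5% of all genes.

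These counts depended on single libraries. Without input replicate 2, without input replicate 3 or without ORC1 IP replicate 3, limma called no pseudogene, with 8, 9 and 15 higher and 25, 25 and 27 lower at an unadjusted p under 0.05. Without ORC1 IP replicate 1, none was called higher and 3 lower, with 5 higher and 34 lower at an unadjusted p under 0.05, and without input replicate 1, the calls were 1 higher and 5 lower. Without ORC1 IP replicate 2, 6 were called higher and 25 lower, and the 2 and 10 calls of the full set were among them. With the replicate number as a block, both higher calls and 5 of the 10 lower calls were kept. In DESeq2 on recovered reads, 8 were called higher and 22 lower, including the 2 and 10 called by limma. Scaling by total count, which shifted the median of all genes to -0.19, left no call in limma, with 7 higher and 31 lower at an unadjusted p under 0.05. Shares of all genes called are given only for limma on the full set, here and below. A change in calls under an alternative may thus not be particular to the pseudogenes.

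**Figure D1:**
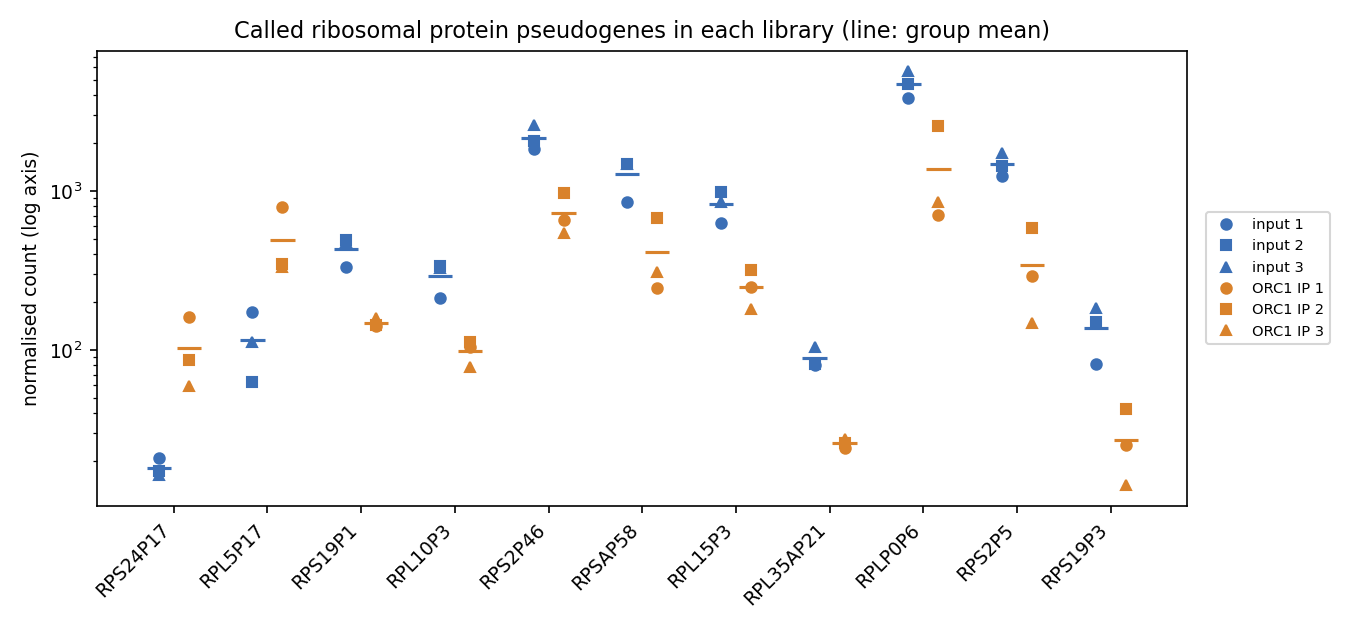
Normalised counts (log axis) of called pseudogenes in each library, inputs in blue and ORC1 IPs in orange, with symbols for RIP replicates 1 to 3 and a line at each group mean. RPS24P17 and RPL5P17 lie higher in all ORC1 IPs than in all inputs, and the others lie lower.

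Both pseudogenes called higher descend from genes of the ribosome whose own mRNAs had positive values. RPS24P17 (ENSG00000243988), a copy of the small-subunit gene RPS24 on chromosome 16 (56906534 to 56906956, plus strand, GRCh38), had 21.1, 17.3 and 16.4 normalised counts in inputs 1, 2 and 3 and 162, 87.1 and 59.6 in the corresponding ORC1 IPs. All ORC1 IPs exceeded all inputs. The input values rest on few reads, since 1 read was worth 1.06 to 1.58 normalised counts in inputs. The log2 fold change was 2.32 ± 0.51 (SE, limma adjusted p = 0.0307). RPL5P17 (ENSG00000243859), a copy of the large-subunit gene RPL5 on chromosome 5 (85464434 to 85465310, plus strand), had 173, 63.0 and 112 normalised counts in inputs against 798, 347 and 333 in ORC1 IPs, with a value of 2.07 ± 0.48 (SE, limma adjusted p = 0.0367). Inputs of RPL5P17 varied more than those of RPS24P17, and the groups still did not overlap. Neither lies within another gene of the table, and they shared 4.01% and 2.66% of their 50-base stretches with the parent transcript.

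The largest negative changes among the called pseudogenes belonged to copies of small-subunit and stalk protein genes. RPS19P3 (ENSG00000240463) lies in an intron of SNX6 on the same strand (chromosome 14, 34568689 to 34569129, minus strand). It had 82.3, 150 and 183 normalised counts in inputs against 25.3, 42.4 and 14.2 in ORC1 IPs, a value of -2.35 ± 0.52 (SE, limma adjusted p = 0.0329). RPS19, its parent, encodes a small-subunit protein that is mutated in Diamond-Blackfan anaemia. RPS2P5 (ENSG00000240342), in an intron of TAOK3 on the opposite strand (chromosome 12, 118246084 to 118246962, plus strand), had 1239, 1437 and 1735 normalised counts in inputs against 292, 586 and 148 in ORC1 IPs. This difference, -2.31 ± 0.46 (SE, limma adjusted p = 0.0232), had the smallest adjusted p of the pseudogenes called. RPLP0P6 (ENSG00000213553, chromosome 2, 38481851 to 38482804, plus strand), a copy of the gene for a protein of the ribosomal stalk, had 3839, 4679 and 5642 in inputs against 708, 2566 and 850 in ORC1 IPs (log2 fold change -2.01 ± 0.50, SE, limma adjusted p = 0.0467). ORC1 IP replicate 2 was the closest to the inputs in all 3 of these pseudogenes.

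The other lower calls, not all of which are named here, had log2 fold changes between -1.73 and -1.52. RPS2P46 (ENSG00000189343, chromosome 17, 19445970 to 19446852) had 1830, 2063 and 2599 in inputs against 661, 968 and 547 in ORC1 IPs (-1.60, limma adjusted p = 0.0356, 0.0508 with the replicate block). Every ORC1 IP lay below every input. RPSAP58 (ENSG00000205246), a copy of the gene for the laminin receptor and ribosomal protein RPSA, had 853, 1472 and 1486 in inputs against 244, 679 and 309 in ORC1 IPs (-1.73, limma adjusted p = 0.0480). RPL15P3 (ENSG00000212802, chromosome 6, 12514110 to 12514724) had 628, 983 and 857 in inputs against 250, 319 and 181 in ORC1 IPs (-1.73, limma adjusted p = 0.0269). Neither of the latter lost its call with the replicate block.

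In 3 further lower calls the ORC1 IPs lay close together. RPS19P1 (ENSG00000214612, chromosome 20, 18504633 to 18505066) had 331, 490 and 476 normalised counts in inputs against 142, 143 and 159 in ORC1 IPs (-1.52, limma adjusted p = 0.0377, 0.0597 with the block). RPL35AP21 (ENSG00000229814, chromosome 9, 71589601 to 71589933) had 80.2, 82.0 and 104 in inputs against 24.2, 26.1 and 27.6 in ORC1 IPs (-1.73, limma adjusted p = 0.04996, 0.0905 with the block). RPL10P3 (ENSG00000230734), in an intron of ASTN2 on the same strand (chromosome 9, 117180628 to 117181095), had 213, 336 and 328 in inputs against 105, 113 and 78.3 in ORC1 IPs (-1.55, limma adjusted p = 0.0478, 0.0731 with the block). RPL35A was the only parent called: it fell by 2.15 on the log2 scale (limma adjusted p = 0.0201, 0.0343 with the block).

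The extremes of fold change lay among rows of low counts that did not pass. RPS24P8 had 7.39, 0 and 3.51 normalised counts in inputs against 28.8, 12.8 and 10.4 in ORC1 IPs (log2 fold change 2.32 ± 0.84, SE, limma adjusted p = 0.131). RPS20P15 had 6.33, 36.2 and 14.0 in inputs against 2.30, 2.90 and 0 in ORC1 IPs (-2.77 ± 0.83, SE, limma adjusted p = 0.0794). RPL30P4 had 39.0, 52.0 and 48.0 in inputs against 3.45, 19.7 and 6.71 in ORC1 IPs (-2.40 ± 0.63, SE, limma adjusted p = 0.0554). Their groups did not overlap, but 1 read was worth 0.581 to 1.58 normalised counts, so these values rest on few reads.

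The most abundant pseudogenes other than RPLP0P6 were not called. RPL3P4, a copy of part of RPL3 on chromosome 14, had 3636, 2983 and 4790 normalised counts in inputs against 7672, 2797 and 3912 in ORC1 IPs (log2 fold change 0.23, limma adjusted p = 0.831). The groups overlapped, with ORC1 IP replicate 1 alone above the inputs, and without that library the value was -0.17. RPL4P4 had 2342, 2758 and 2430 in inputs against 6952, 2925 and 2392 in ORC1 IPs (0.54, limma adjusted p = 0.538), and RPL14P1 had 2102, 2254 and 2400 in inputs against 8980, 2557 and 2784 in ORC1 IPs (0.83, limma adjusted p = 0.369). ORC1 IP replicate 1 stood far above the other libraries in both, and the groups overlapped in RPL4P4 but not in RPL14P1. RPL13P12 (-0.80) and RPL7AP6 (-0.35) had adjusted p of 0.359 and 0.680 in limma, and their groups overlapped.

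By their median, copies of small-subunit genes lay lower than copies of large-subunit genes. The 33 RPS pseudogenes had a median log2 fold change of -1.11, with 6 above 0, 1 called higher and 5 lower. The 73 RPL pseudogenes had a median of -0.33, with 30 above 0, 1 called higher and 5 lower. Of all genes, 2.28% were called higher and 1.42% lower. Copies of 1 parent are counted singly here. The 30 include all 11 tested RPL5 copies and the 6 all 4 tested RPS24 copies, and 8 of the 33 are RPS4X copies. The parents had medians of -1.10 over 23 RPS genes and -0.45 over 39 RPL genes. Other pseudogenes whose symbol is a gene of the table followed by P and a number had a median of -0.13 over 833 tested, with 19 called higher and 17 lower.

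The replicates did not give the same picture. Within RIP replicate 1 the median log2 IP/input of the 106 pseudogenes was 0.28, with 57 above 0. In replicates 2 and 3 it was -0.69 and -1.16, with 35 and 27 above 0. The corresponding medians of all genes lay between -0.01 and 0.05, so the pseudogenes lay below the bulk of genes in replicates 2 and 3 but not in replicate 1. Input and IP are paired here by their labelled number. Deviations from the group mean in libraries of 1 number correlated at -0.322, -0.240 and 0.215 across genes, so libraries with number 1 or 2 did not deviate together.

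**Figure D2:**
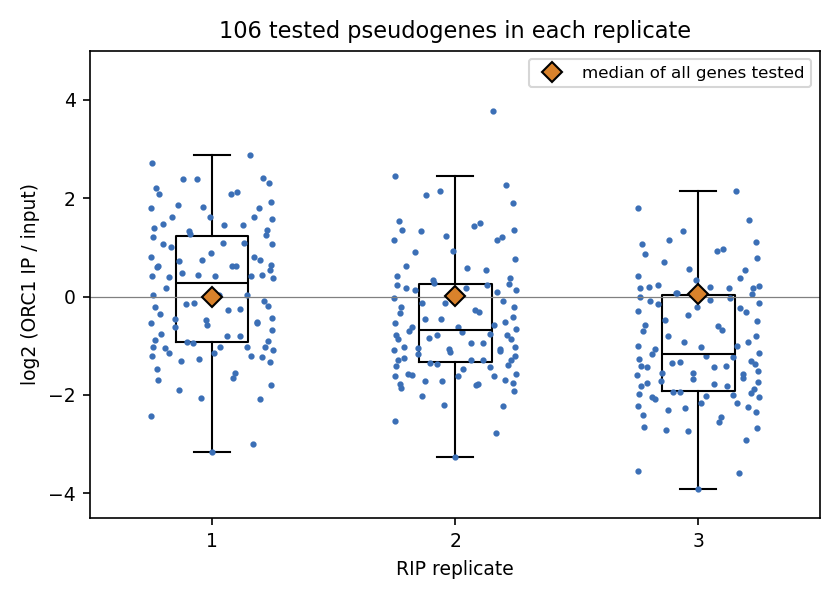
Log2 ratio of ORC1 IP to the input of the same number for the 106 tested pseudogenes (points), with boxes from the lower to the upper quartile and a line at the median, and the median of all genes tested as an orange diamond. The box lies above 0 at its median in replicate 1 (0.28) and below it in replicates 2 and 3 (-0.69 and -1.16).

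Each pseudogene was then set beside its parent mRNA. Over the 106 pairs, the log2 fold changes of pseudogene and parent had a Spearman rho of 0.718 and a Pearson r of 0.757, and 91 pairs (85.8%) had the same sign. The median absolute difference within a pair was 0.38. These are descriptions across pairs that share libraries and, in part, parents and reads. Within replicates 1, 2 and 3, the rho was 0.756, 0.615 and 0.597. Without the RPL5 family, the one with the most tested copies, it was 0.643 over 95 pairs. For comparison, 828 other pseudogenes had a rho of 0.816 with their parents.

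**Figure D3:**
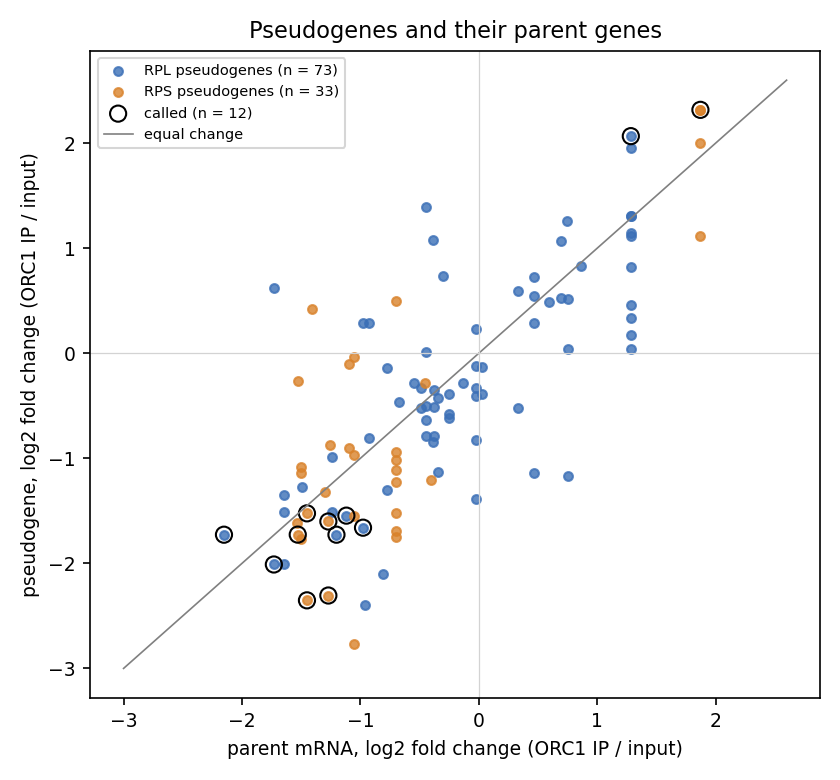
Log2 fold change (ORC1 IP over input) of each tested pseudogene against that of its parent mRNA, RPL copies in blue and RPS copies in orange, with called pseudogenes circled and a line of equal change. Most points lie near the line (Spearman rho 0.718 over 106 pairs), and 15 of them lie in the quadrants of opposite sign.

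The likeness to the parent differed with the level of the row and with how much sequence it shared, and not in the same way by each measure. Among the 44 pseudogenes with a mean of at least 100 normalised counts the rho was 0.890, and among the 62 below it was 0.597. Among the 23 copies that shared at least 50% of their 50-base stretches with other transcripts the rho was 0.788 and the median absolute difference 0.30, with the same sign as the parent in 18. Among the 43 that shared under 10%, the rho was 0.587 and the median absolute difference 0.64, with the same sign as the parent in 39. The part of counting error and of read assignment in this was not tested.

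Whether a pseudogene changed differently from its parent was tested on their ratio within each library. Of all 934 pseudogene-parent pairs of the table, 0.321% were called higher and 0.107% lower in limma. Of the 106 ribosomal protein pseudogenes, RPS2P5 was the one called, with a change of its ratio to RPS2 of -1.04 ± 0.15 (SE, log2, limma adjusted p = 0.0425) in the ORC1 IP. RPS2 itself, whose protein lies where mRNA enters the small subunit, had 6270, 6551 and 8103 normalised counts in inputs against 2758, 5051 and 1701 in ORC1 IPs (log2 fold change -1.27, limma adjusted p = 0.158). Both copy and parent were thus lower in every ORC1 IP, and the copy by more. With the replicate block this call was lost (adjusted p = 0.137), and it was kept in only 3 of 12 alternatives. At an unadjusted p under 0.05, 10 of the 106 ratios were higher and 15 lower, with a median of -0.14, beside 66 higher and 55 lower of all 934 pairs, with a median of -0.03.

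RPL23AP2 was the one pseudogene whose ratio to the parent was called with the replicate block. Without ORC1 IP replicate 2, limma called its ratio (2.09, adjusted p = 0.0384) and those of RPLP0P2 (2.58, adjusted p = 0.0457), RPL4P3 (-1.82, adjusted p = 0.0305), RPL5P34 (-1.38, adjusted p = 0.0304) and RPS2P5 (-1.13, adjusted p = 0.00978). It is a copy of RPL23A, whose protein sits at the exit of the ribosomal tunnel, on chromosome 19, and shared 44.4% of its 50-base stretches with the parent. Its normalised counts were 243, 199 and 187 in inputs against 1296, 463 and 276 in ORC1 IPs, with every ORC1 IP above every input (log2 fold change 1.40, limma adjusted p = 0.126), while RPL23A had 366, 747 and 566 in inputs against 676, 470 and 192 in ORC1 IPs. The ratio was 1.84 ± 0.37 (SE, log2) higher in the ORC1 IP, with a limma adjusted p of 0.111, and 0.0301 with the replicate block. These pseudogenes other than RPS2P5 were singled out after their values were seen.

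In 15 pairs, pseudogene and parent had opposite signs. RPL7P22 had the lowest identity to its parent, 68.2% over the 26.1% of its length that aligned to RPL7. It had 35.9, 85.1 and 42.1 normalised counts in inputs against 25.3, 17.4 and 23.8 in ORC1 IPs, whereas RPL7 had a value of 0.75. The ratio had a limma adjusted p of 0.0833. RPLP0P2, a transcribed processed pseudogene, had 13.7, 7.88 and 15.2 in inputs against 9.21, 36.0 and 19.4 in ORC1 IPs against -1.73 for RPLP0 (adjusted p of the ratio 0.0990). Neither ratio passed with all libraries, and these pairs were chosen after their values were seen.

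Parents with several copies gave families. The tested pseudogenes fell into 47 families, of which 27 had at least 2 members. In 16 of these 27, all tested copies had the sign of the parent. The SD of log2 fold changes over the 86 pseudogenes in these families was 1.13, and the pooled SD within families was 0.756.

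**Figure D4:**
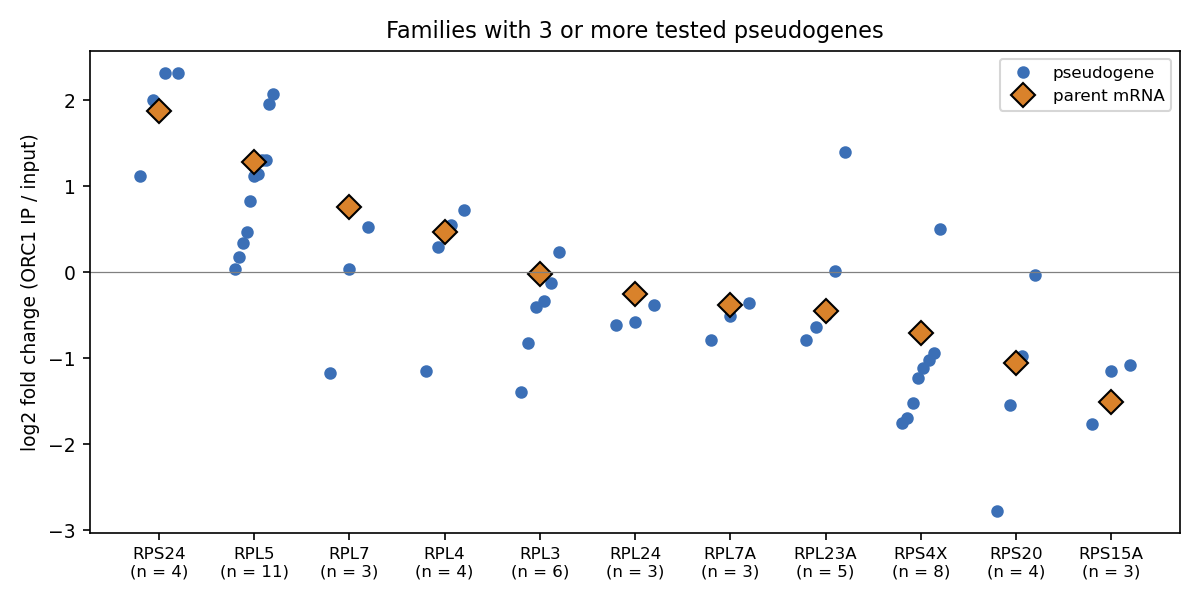
Log2 fold change (ORC1 IP over input) of the tested pseudogenes (blue points) of each parent with at least 3 of them, ordered by the value of the parent mRNA (orange diamond). RPS24 and RPL5 copies all lie above 0, and 7 of 8 RPS4X copies below.

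RPL5, which encodes a large-subunit protein that also binds MDM2 when ribosome assembly is disturbed, had the most tested copies, 11 of 16. All 11 had values above 0, from 0.04 to 2.07 with a median of 1.12, and RPL5 itself had 1.28. RPL5 had 9661, 8651 and 8241 normalised counts in inputs against 34496, 17527 and 16464 in ORC1 IPs (limma adjusted p = 0.268). In RPL5P1, RPL5P4, RPL5P5, RPL5P17 and RPL5P24 all ORC1 IPs exceeded all inputs, as in 12.7% of all genes. RPL5P1 on chromosome 15 had 516, 473 and 442 in inputs against 1802, 1046 and 862 in ORC1 IPs (1.30 ± 0.37, SE, limma adjusted p = 0.0663). In the other 6, from RPL5P23 (0.04) to RPL5P18 (1.12), the groups overlapped. The 11 copies shared at most 13.4% of their 50-base stretches with RPL5.

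The 4 tested RPS24 copies, of 5 in the table, all had every ORC1 IP above every input, as did 12.7% of all genes. Their log2 fold changes were 1.12 for RPS24P16, 2.00 for RPS24P6 and 2.32 for RPS24P17 and RPS24P8, and RPS24P17 was the one called. This family, with under 5 tested copies, was chosen after its values were seen. RPS24P6 had 4.22, 3.15 and 5.85 normalised counts in inputs against 33.4, 17.4 and 14.2 in ORC1 IPs (limma adjusted p = 0.0894). RPS24 itself, a small-subunit protein gene, had 7044, 3945 and 6055 in inputs against 32064, 20715 and 12431 in ORC1 IPs, a value of 1.87 ± 0.61 (SE, limma adjusted p = 0.102). Parent and copies were above the input of the same number in each ORC1 IP.

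RPS4X, the X-linked gene for a small-subunit protein, had 8 of 13 copies tested, with a median of -1.17. In 7 of them every ORC1 IP lay below every input, from RPS4XP22 (-0.94) to RPS4XP13 (-1.75), and RPS4XP17 (0.50) overlapped. The same held for RPS4X itself and for 13.5% of all genes. RPS4XP1 on chromosome 12 had 177, 303 and 281 normalised counts in inputs against 115, 123 and 81.2 in ORC1 IPs (-1.23 ± 0.39, SE, limma adjusted p = 0.0979). RPS4X had 13525, 20036 and 20721 in inputs against 11798, 9789 and 11319 in ORC1 IPs (-0.70, limma adjusted p = 0.556). None of the 8 was called in limma, with 5 lower at an unadjusted p under 0.05, while RPS4XP1, RPS4XP3 and RPS4XP6 were in DESeq2 and without ORC1 IP replicate 2.

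The 6 tested copies of RPL3, whose protein reaches to the peptidyl transferase centre, spread from -1.39 for RPL3P6 to 0.23 for RPL3P4 around a parent value of -0.02. The 5 tested copies of RPL23A spread from -0.79 for RPL23AP64 to 1.40 for RPL23AP2 around -0.45. No copy of either family was called in limma, at an unadjusted p under 0.05 only RPL23AP2 passed, and only RPL23AP2 was called in DESeq2.

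Levels per length set the copies against their parents. In inputs, the level of a pseudogene per kilobase of its annotated transcript was a median of 2.78% of that of the parent over 104 pairs, with a lowest value of 0.0721%. It was under 1% in 34 pairs and over 10% in 36. The pairs named next are examples and do not include the highest value. RPL7P9, of 747 nt, reached a mean of 348% of RPL7, whose own input mean was 347 normalised counts. The 478% of RPS23P8 and the 632% of RPL14P1 rest on parent transcripts of 3252 and 7136 nt. Other pairs also rest on long parent transcripts, such as RPL13P12 (134%, 2187 nt) and RPL37P23 (20.4%, 7573 nt). The counts under 1% and over 10% depend on these annotated lengths. For near-identical pairs the split of reads between copy and parent is uncertain.

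In 23 of 104 tested pseudogenes, an open reading frame from ATG was at least 95% as long as the parent's coding sequence. A frame that runs to the annotated end was allowed. Only lengths were compared, and whether the frame is that of the parent was not tested. Among the 23 were the called pseudogenes RPL15P3, RPLP0P6, RPS19P3 and RPS2P5. The median log2 fold change was -0.52 with 5 above 0 in these 23, and -0.41 with 31 above 0 in the other 81. Neither RPL5P17 nor RPS24P17 had such a frame.

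Of the 106 tested pseudogenes, 36 lie within another gene of the table in GENCODE v44, 15 on its strand and 21 on the opposite strand, and 32 of these 36 lie in an intron. The library kit kept strand, but the use of strand in counting is not stated in the methods. Log2 fold changes of pseudogene and host had a Spearman rho of 0.459 over 14 pairs on the same strand and of -0.270 over 19 pairs on opposite strands. Other pseudogenes had a rho with their hosts of 0.145 (n = 105) on the same strand and -0.017 (n = 131) on opposite strands. The difference between strands was not tested. With their parents, the same-strand and opposite-strand ribosomal protein pseudogenes had a rho of 0.714 (n = 15) and 0.747 (n = 21).

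**Figure D5:**
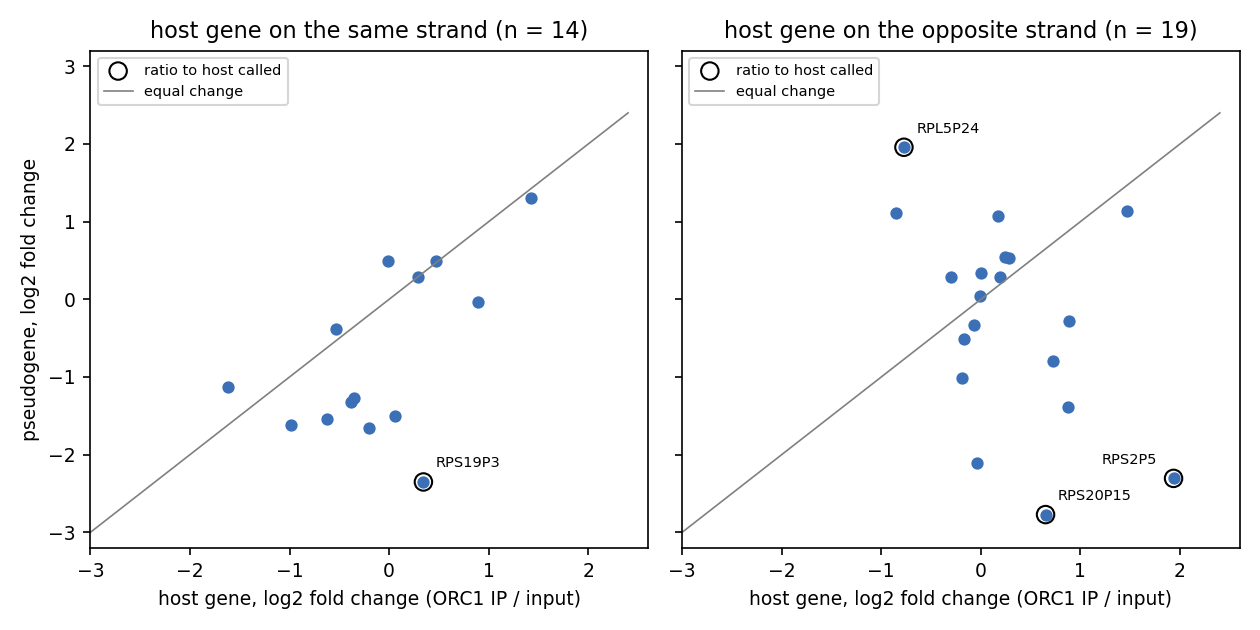
Log2 fold change (ORC1 IP over input) of pseudogenes inside a host gene against that of the host, for hosts on the same strand (left, n = 14) and on the opposite strand (right, n = 19), with a line of equal change and pseudogenes whose ratio to the host was called circled. RPS2P5, RPS20P15 and RPS19P3 lie far below the line and RPL5P24 far above it.

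The ratio of pseudogene to host was tested over all 269 pseudogenes inside a host, of which limma called 2.6% higher and 7.81% lower. Among 33 ribosomal protein pseudogenes, 1 was called higher and 3 lower. The ratio of RPS2P5 to TAOK3, a kinase gene, was -4.24 ± 0.88 (SE, log2, limma adjusted p = 0.00754), and TAOK3 itself rose from 370, 142 and 194 normalised counts in inputs to 1118, 493 and 1046 in ORC1 IPs (log2 fold change 1.94, limma adjusted p = 0.0379). The ratio of RPS19P3 to SNX6, a sorting nexin gene, was -2.70 ± 0.68 (SE, limma adjusted p = 0.0216), and SNX6 had 1607, 671 and 832 in inputs against 1097, 1425 and 1175 in ORC1 IPs. The ratio of RPS20P15 to SLC4A7, a bicarbonate transporter gene, was -3.42 ± 1.08 (SE, limma adjusted p = 0.0452). RPS20P15 rests on few reads, and this call was lost with a pseudocount of 0.5 (limma adjusted p = 0.0551). The groups of SLC4A7 overlapped, with 3733, 4791 and 2178 in inputs against 7883, 3098 and 6160 in ORC1 IPs. RPL5P24, with 23.2, 23.6 and 10.5 in inputs against 126, 61.5 and 49.9 in ORC1 IPs, rose by 2.73 ± 0.72 (SE, limma adjusted p = 0.0216) relative to ENSG00000253320 on the opposite strand. That host had only 14.8, 26.8 and 21.1 in inputs against 5.76, 27.9 and 8.94 in ORC1 IPs, so its ratio rests on few reads. These ratios are log2 differences between ORC1 IP and input. None of the 4 passed with the replicate block (adjusted p of 0.0862 to 0.0987 in limma), with 2 higher and 6 lower at an unadjusted p under 0.05.

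Of the 62 parent mRNAs, 15 had values above 0, with a median of -0.69. In limma, RPL35A was called lower and no parent higher, with 20 lower and 1 higher of the 62 at an unadjusted p under 0.05. Over the 16513 genes, 1.42% were called lower and 2.28% higher, and 1561 were lower and 2014 higher at that unadjusted p. edgeR called 1 lower and no higher, and DESeq2 called 13 lower and 2 higher. The shares of all genes called in edgeR and DESeq2 are not given here, so these counts have no background beside them.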

How the data were processed

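RIP-seq libraries of nuclear RNA from untreated HCT116 cells, 3 inputs and 3 ORC1 IPs, were grouped by their GEO labels. According to the submitters' processing notes and the methods of the study, reads were trimmed with Trimmomatic, aligned with STAR to hg19, counted per gene with featureCounts and compared with DESeq2 against input. For the deposited signal the authors scaled the reads of every gene by a size factor of its library. Whole reads were recovered from 100% of values (tolerance 0.001) in each library. The deposited table also holds the authors' log2 fold changes with standard errors, a Wald score, p-values and adjusted p-values, which were not used.

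The pseudogenes and lists were chosen with earlier results of these data known. Log2(normalised count + 1) of the deposited signal was tested with limma 3.58.1 (intensity trend, no block, Benjamini-Hochberg, adjusted p under 0.05) over 16513 genes whose mean was 10 or more. Depth limits precision at low counts. Ratios to parent and host were tested likewise over all such pairs. Identity was taken from blastn 2.17.0 against the parent transcript, and coordinates, host genes and sequences from GENCODE v44 (GRCh38), matched by Ensembl identifier, since no hg19 annotation was used here. Some genes and the results that need them are not reported here. Otherwise named are the called pseudogenes, the 6 most abundant, the 3 highest and 3 lowest fold changes, called ratios, families of at least 5 tested copies, and those said to be chosen after their values were seen. Replicate numbers pair input and IP by the labels. Alternatives were a pseudocount of 0.5 or 5, a filter at 50 or none, other scalings, edgeR 4.0.16 and DESeq2 1.42.0 on recovered reads, a replicate block and each library left out. Same-group libraries differed by more than counting error (chi-square per degree of freedom 49.5 to 676). This does not show whether they came from separate cultures.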

Additional observations from a re-analysis of the deposited data

How the results depend on the processing

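Medians of the tested pseudogenes stayed negative under every alternative, between -0.77 and -0.23, and the Spearman rho with the parents lay between 0.62 and 0.84, with 0.84 under a filter at a mean of 50 as the highest. With 1 library left out it was 0.62 (without ORC1 IP replicate 1) to 0.747. Leaving out 1 library at a time gave 0 to 6 higher and 0 to 25 lower calls, 0 to 2 higher and 0 to 3 lower calls in the parent ratio and 0 to 2 higher and 0 to 5 lower calls in the host ratio. Other moved counts of higher calls were 1 in limma without the trend, 0 with total count scaling and 8 in DESeq2. The lower calls moved to 5 with the replicate block in limma, 6 in edgeR with or without the replicate block, 1 without the trend (none of them among the 10), 0 with total count scaling and 22 in DESeq2. In the parent ratio, the lower call went to 0 with a pseudocount of 5, a filter at 50, the replicate block or no trend, and the block gave 1 higher call, that of RPL23AP2. In the host ratio, no filter gave 5 lower calls, a filter at 50 gave 0 higher calls, and the replicate block gave 0 higher and 0 lower calls.

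RPL3, at -0.02, changed sign with TMM scaling (0.020), in edgeR (0.087) and DESeq2 (0.072), and ranged from -0.42 to 0.34 with 1 library left out. RPL3P4 ranged from -0.17 to 0.55. The causes were not tested. Of the values of named genes and ratios under the alternatives, 567 kept direction and side of the threshold, 126 lost and 20 gained a call, and 8 reversed. The scaling and count-model alternatives were run for the comparison of ORC1 IP with input, and not for the ratios.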
